A study of Mus musculus with 2 samples.

Results

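A set of 10 immediate-early genes was followed in the liver of mice after 2/3 partial hepatectomy (PH): Fos, Fosb, Jun, Junb, Jund, Egr1, Atf3, Myc, Ier2 and Ier3. They were chosen by name, and all 10 of these genes were among the 34745 genes listed. Liver RNA of miR-182-5p KO mice was sequenced beside that of wild-type (WT) mice. Both groups were male mice, 8 to 10 weeks old, that underwent 2/3 PH, and the livers were analysed at day 3 after surgery. The KO mice, labelled miRNA-182 KO, are heterozygous: they carry the deletion of miR-182 on a single allele and keep the other, so that the comparison is between a partial loss of the miRNA and none, in every cell of the body. There was a single library of each genotype, 1 KO and 1 WT, and how many mice went into it is not given in the sources used here. A difference between the libraries therefore has no replicate check, no p-value is given, and every interval below covers the error of counting reads only.

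Immediate-early genes are those whose transcription starts within minutes of a stimulus, without the need for new protein, and stops soon after. Growth factors, cytokines and stress act through MAP kinases on transcription factors that already sit on their promoters. Products of the Fos and Jun genes pair through leucine zippers to form AP-1, a family of dimers that bind DNA and drive genes of proliferation and repair. After PH, induction of Jun, Fos and Myc in the remnant liver is a classical mark of the priming of hepatocytes, which precedes their entry into the cell cycle.

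The libraries held 13247497 (KO) and 13163348 (WT) counted reads. Of these reads, 51.7% (KO) and 31.0% (WT) fell on 13 protein-coding mitochondrial genes, so library sizes were scaled by TMM, a method that limits the weight of the most abundant genes. Without it, scaled by total counts alone, log2 fold changes shifted down alike, to a median over all tested genes of -0.60. The 13561 genes that reached a sum of 10 counts were tested, meaning that their fold change, KO over WT, was computed. A gene was called when it passed a 2-fold change. Mir182, the gene that was deleted, was not analysed here, and its level gives no check of the genotype labels. Hepatocyte markers were abundant in both libraries, with a sum over 6 markers of 51232 (KO) and 50269 (WT) TMM-scaled CPM, counts brought to a common library size. Alb made up most of that sum, the single markers ran from -0.63 (Cps1) to 0.26 (Serpina1c) on the log2 scale, and their median with total counts was -0.46.

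The 10 genes split. Fos was higher in the KO liver, whereas the Jun genes, Egr1, Atf3 and Myc were lower. Of the 9 genes with at least 10 counts, Fos and Ier3 passed a 2-fold rise and Egr1 and Atf3 a 2-fold fall. Over all genes tested, 9.46% passed a 2-fold rise and 9.94% a 2-fold fall. A change in either direction was passed by 4 of the 9 genes and by 19.4% of all genes tested. The direction was more uneven: 7 of the 9 genes were below 0, against 50% of all genes tested. The counting interval lay below 0 for 6 of them, against 26.2% of all genes tested, and above 0 for 1, against 25.8%. In all, the interval was clear of 0 for 7 of the 9 genes, against 52% of all genes tested. The median log2 fold change of the 9 genes was -0.50, beside 0.00 for all genes tested. With total counts, under which 26.6% of all genes passed a 2-fold fall, 4.6% a 2-fold rise and 31.2% either, 5 of the 9 fell, namely Jun, Jund, Egr1, Atf3 and Myc, and Fos alone rose. By that scaling 81.7% of all genes tested were below 0, so that 7 of 9 is close to the background. The direction of each of the 9 genes was the same with every scaling tried.

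**Figure D1:**
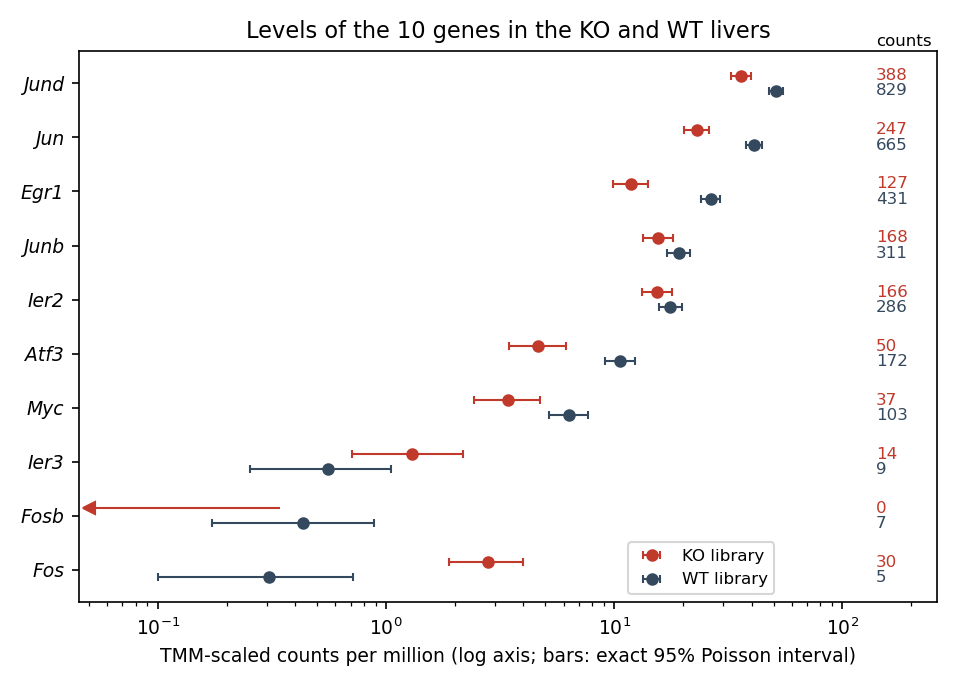
TMM-scaled CPM (log axis) of the 10 genes in the KO (red) and WT (blue) liver, with exact 95% Poisson intervals and the raw counts at the right. Fos stood at 30 counts (KO) and 5 (WT), Fosb had none in the KO library (arrow, with the interval's upper limit), and the KO and WT intervals did not overlap for Fos, Jund, Jun, Egr1, Atf3 and Myc. Such overlap was not counted over all genes tested, of which 52% had a fold-change interval clear of 0.

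Fos encodes the founding partner of Jun in AP-1. The gene (ENSMUSG00000021250; GRCm38, chromosome 12, plus strand, 85473890 to 85477273) had 30 KO counts and 5 WT counts, or 2.79 and 0.31 TMM-scaled CPM. The KO library was the higher by a log2 fold change of 3.03, with a counting interval of 1.80 to 4.90. This placed Fos at percentile 98.8 of the fold changes of all genes tested. The value rests on few reads, and over the scalings and settings tried it ran from 1.80, with the authors' FPKM, to 3.04. Fosb (ENSMUSG00000003545; chromosome 7, minus strand, 19302721 to 19310045) encodes the closest relative of Fos. It had 0 counts in KO and 7 in WT liver, which is under the minimum for the test. With TMM the counting interval of its log2 fold change had an upper end of 0.06 and so just included 0. Total counts move log2 fold changes down, to a median of -0.60 over all genes tested, which would bring this end below 0. Whether Fosb differed beyond counting error thus depends on the scaling, and the value rests on 7 reads.

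The remaining members of the Fos family, which are outside the 10 genes, were Fosl1, with 0 counts (KO) and 1 (WT), and Fosl2, with 63 and 154. Fosl2, which encodes the Fos relative Fra-2, stood at a log2 fold change of -0.69 (-1.14 to -0.27). Of all counts on the 4 Fos genes, Fosl2 took 92.2% in the WT library (exact Clopper-Pearson interval 87.1% to 95.8%) and 67.7% in the KO library (57.3% to 77.1%). The share of Fos was 2.99% in the WT library (0.979% to 6.85%) and 32.3% in the KO library (22.9% to 42.7%). Shares of this kind do not depend on how the libraries are scaled.

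Jun, Junb and Jund encode the partners that Fos proteins need to bind DNA as AP-1. Jun (ENSMUSG00000052684; chromosome 4, minus strand, 95049034 to 95052222) is the strong activator among them and is required for normal liver regeneration. It had 247 KO counts and 665 WT counts, a log2 fold change of -0.84 (-1.05 to -0.62). Jund (ENSMUSG00000071076; chromosome 8, plus strand, 70697739 to 70700616), the member that most resting cells already hold, had 388 and 829 counts and stood at -0.50 (-0.68 to -0.33). Junb (ENSMUSG00000052837; chromosome 8, minus strand, 84976909 to 84978748), which often opposes Jun in proliferation, had 168 and 311 counts and stood at -0.30 (-0.58 to -0.02). All 3 were lower in the KO library, in the order Jun, Jund, Junb. Summed, they had 803 and 1805 counts, a log2 difference of -0.58 (-0.70 to -0.46).

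The make-up of the Jun family was compared as well. Levels of different genes were compared per kilobase of transcript, since a longer transcript yields more reads. By this measure Jund made up 43.3% of the family in WT and 44.4% in KO liver, Jun 31.3% and 25.5%, and Junb 25.4% and 30.1%. The length used for Jund was that of the gene in the authors' table, 2878 bases, against 1668 for its GENCODE M21 transcript. With the shorter length the share of Jund would be higher, and those of Jun and Junb lower, in both libraries. The ratio of Jun to Junb counts was 2.14 in WT and 1.47 in KO liver, 1.45-fold lower in the latter (exact interval 1.14 to 1.86). The ratio of Jun to Jund was 1.26-fold lower (1.04 to 1.53). For Junb to Jund the interval of the KO to WT ratio, 0.917 to 1.45, included 1. The ratio of Fos to Jun counts was 16.1-fold higher in the KO library (6.09 to 53.8).

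**Figure D2:**
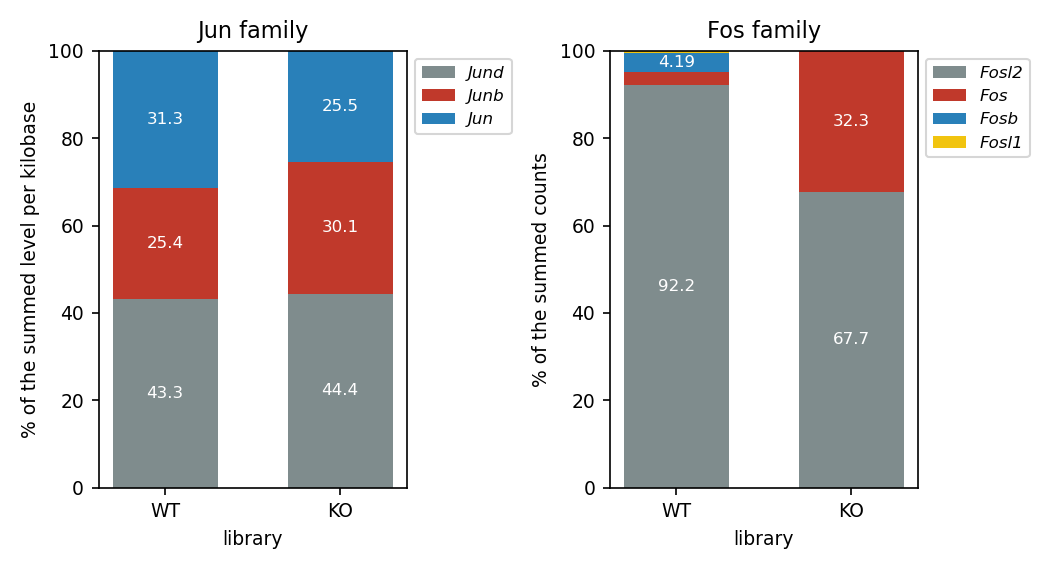
Share of each gene in the summed level per kilobase of the 3 Jun genes (left) and in the summed counts of the 4 Fos genes (right), in percent, for the WT and KO libraries. Jund, taken as 2878 bases long, held 43.3% and 44.4% of the Jun family, while the share of Fos in its family was 2.99% in WT and 32.3% in KO liver.

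Egr1 (ENSMUSG00000038418) encodes a zinc finger factor that is induced through the serum response factor, SRF, and drives growth and wound-response genes. It had 127 counts in KO and 431 in WT liver, and fell by 1.17 on the log2 scale (interval -1.47 to -0.88). Its own relatives were nearly silent: Egr2 had 0 and 6 counts, and Egr3 and Egr4 had none in either library. Atf3 (ENSMUSG00000026628; chromosome 1, minus strand, 191170296 to 191218039) encodes a stress-induced bZIP factor that pairs with Jun and often represses. It had 50 and 172 counts and fell by 1.18 (-1.67 to -0.73). These were the largest decreases among the 9 genes and lay at percentiles 7.77 and 7.56 of the fold changes of all genes tested. Relative to Jund, which needs no scaling, Egr1 was 1.59-fold lower (1.25 to 2.02) and Atf3 1.61-fold lower (1.14 to 2.30) in the KO library.

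Myc (ENSMUSG00000022346; chromosome 15, plus strand, 61985341 to 61990374) encodes a factor that raises the output of ribosome and metabolic genes when cells prepare to divide. It had 37 counts (KO) and 103 (WT) and stood at -0.88 (-1.47 to -0.33). Its interval includes a 2-fold decrease, and with total counts its log2 fold change was -1.47. Relative to Jund the interval of the KO to WT ratio of Myc, 0.502 to 1.15, included 1.

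Ier2 (ENSMUSG00000053560; chromosome 8, minus strand, 84661331 to 84662852) encodes a small nuclear protein of the first wave of induction. It had 166 KO counts and 286 WT counts, and its log2 fold change of -0.19 (-0.48 to 0.09) was within the counting error. Ier3 (ENSMUSG00000003541; chromosome 17, plus strand, 35821684 to 35822923), which encodes a regulator of cell survival and of ERK signaling, had 14 and 9 counts. Its log2 fold change of 1.18 passed 2-fold, but the counting interval, -0.08 to 2.62, included 0, and with total counts it was 0.60. Fos was thus the only gene of the 10 whose increase was larger than the counting error.

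**Figure D3:**
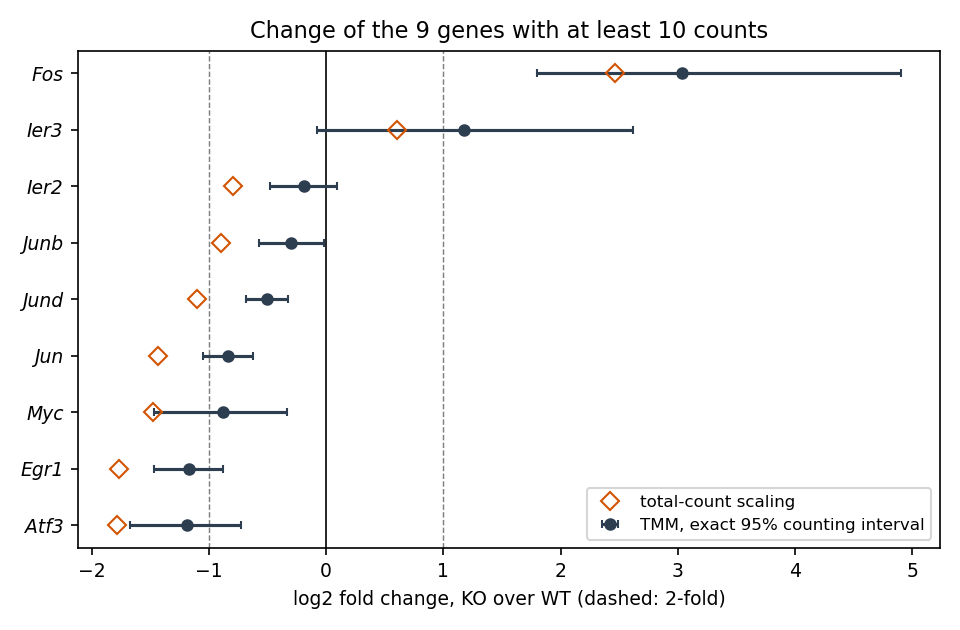
Log2 fold change, KO over WT, of the 9 genes with at least 10 counts, with TMM scaling (filled, exact 95% counting interval) and with total counts (open), dashed lines marking a 2-fold change. Fos (3.03) and Ier3 (1.18) lie to the right of 0 and the other 7 to the left under both scalings, down to -1.18 for Atf3.

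In the order of levels Jund came first in both livers. With the shorter length of Jund, 1668 bases, its levels would be higher still. In the WT liver Jund had the highest level, 17.8 TMM-scaled CPM per kilobase (exact interval 16.6 to 19.0), and was followed by Jun at 12.9, Ier2 at 11.6 and Junb at 10.4. Jun and Ier2, and Ier2 and Junb, did not differ beyond counting error. Egr1 (5.93) and Atf3 (5.35) came next and did not differ from each other, then Myc at 2.72. Ier3 (0.491), Fos (0.146) and Fosb (0.114) were last, and Fos and Fosb did not differ beyond counting error. In the KO liver Jund (12.5) was followed by Ier2 (10.1), Junb (8.49) and Jun (7.20), where Jun and Junb, and Junb and Ier2, did not differ beyond counting error. Myc (1.47), Fos (1.32) and Ier3 (1.15) stood together there, and none of these neighbours differed beyond counting error, nor did Egr1 (2.63) and Atf3 (2.34). Jun moved from the second place in the WT liver to the fourth in the KO liver, and every other gene by at most 1 place.

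**Figure D4:**
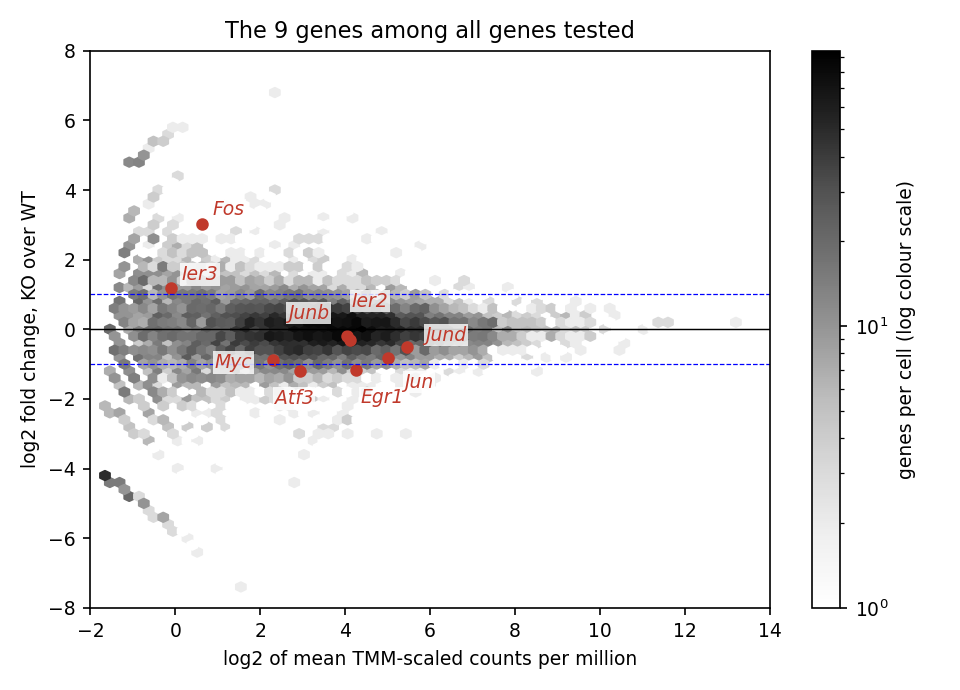
Log2 fold change, KO over WT, against the log2 of the mean TMM-scaled CPM for all 13561 genes tested (grey cells, log colour scale), with the 9 genes in red and dashed lines at a 2-fold change. Fos (3.03) lies above the bulk of genes of its level, and Egr1 (-1.17) and Atf3 (-1.18) at the lower edge of theirs.

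The structure of the genes set some limits to these counts. Jun, Junb, Jund and Ier2 are single-exon genes, whose log2 fold changes ran from -0.84 to -0.19. Fos, Egr1, Atf3, Myc and Ier3 are spliced, with 2 to 4 exons in the longest coding transcript, and ran from -1.18 to 3.03. Jun overlaps the antisense gene Junos, which had 2 counts in KO and 19 in WT liver, and Jund overlaps the antisense gene Gm11175, with 2 and 1 counts. Whether the counting used the strand is not given in the sources used here, so reads of these pairs may have been exchanged or left out. The 1668-base Jund transcript of GENCODE M21 shares 48.2% of its 51-base words with Gm11175, and Jun shares 5.80% with Junos. For the longer Jund gene of the authors' table, 2878 bases, the share was not computed. The level of Jund, its place in the order and the ratios to it are uncertain for this reason. None of the other 8 genes shared a word of 51 bases with a transcript of another gene.

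The promoters of Fos, which rose, and of Jun and Atf3, which were lower, are printed here because the 3 genes are classical targets of CREB, ATF and Jun factors and their changes differed. They were taken from RefSeq (GRCm38.p6), which gave a promoter for 7 of the 10 genes, namely Fos, Fosb, Jun, Junb, Jund, Atf3 and Ier3. Each runs 300 bases 5′ to 3′ along the gene's strand to 50 bases past the start site: Fos from chr12:85473640-85473939 (plus strand), Jun from chr4:95052173-95052472 (minus strand) and Atf3 from chr1:191183284-191183583 (minus strand), a start site inside the span that the table gives for the gene. Capitals mark TGACG, the half-site that CREB and ATF factors read, on either strand, and in Jun the full AP-1-like word TGACATCA.
Fos: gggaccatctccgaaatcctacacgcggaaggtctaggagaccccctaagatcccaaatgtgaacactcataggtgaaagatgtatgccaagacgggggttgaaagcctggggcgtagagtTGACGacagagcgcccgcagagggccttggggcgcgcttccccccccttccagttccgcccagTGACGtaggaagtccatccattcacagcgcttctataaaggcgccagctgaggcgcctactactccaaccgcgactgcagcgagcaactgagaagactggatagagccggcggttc
Jun: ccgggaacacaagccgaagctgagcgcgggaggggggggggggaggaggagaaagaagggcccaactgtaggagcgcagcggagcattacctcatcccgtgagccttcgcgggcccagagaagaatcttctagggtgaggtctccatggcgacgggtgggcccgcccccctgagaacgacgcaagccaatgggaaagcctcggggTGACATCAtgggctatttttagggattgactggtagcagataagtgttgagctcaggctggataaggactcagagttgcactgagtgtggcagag
Atf3: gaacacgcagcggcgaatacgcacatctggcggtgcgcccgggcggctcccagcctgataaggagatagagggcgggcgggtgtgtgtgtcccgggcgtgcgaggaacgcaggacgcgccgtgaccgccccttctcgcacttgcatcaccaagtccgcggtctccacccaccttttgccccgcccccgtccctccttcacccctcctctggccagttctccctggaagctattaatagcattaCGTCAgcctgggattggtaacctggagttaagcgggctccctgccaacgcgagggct
TGACG occurred in the promoters of Fos, Fosb, Junb and Atf3, 4 of 7, and in 20.8% of the 32851 RefSeq promoters searched. In Fos it lay at -129 to -125 and at -66 to -62 relative to the start site, in Fosb at -60 to -56, in Junb at -106 to -102 and in Atf3 at -7 to -3. TGACATCA was found in Jun alone of the 7, at -45 to -38, and in 3.62% of all promoters. None of the 7 windows held the AP-1 site TGANTCA, the palindromic CRE TGACGTCA (which contains TGACG), the E-box CACGTG or a CArG box, the site of SRF, which 7.81%, 1.79%, 7.15% and 1.63% of all promoters held. TGACG and TGACATCA were chosen after the sequences had been read. Both strands were searched, within these windows only. Sites further upstream, and the promoters of Egr1, Myc and Ier2, lay outside the search, so the absence of a word holds for these windows alone. The Jund window runs from 70697489 to 70697788 on chromosome 8, whereas GENCODE M21 starts the gene at 70698949. The bases around that second start site were not searched. Of other core promoter words, GGGCGG was found in 5 of the 7 windows, CCAAT in 4 and TATAAA in Fos and Junb, against 35.7%, 37.4% and 13.6% of all promoters. A match of letters is a description and not a site. Of the genes with TGACG, Fos was above 0 and Junb and Atf3 below.

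The deleted miRNA reads, with its seed (bases 2 to 8) in capitals:
miR-182-5p: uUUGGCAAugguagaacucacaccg
A search for the 8-base match TTGCCAAA and the 7-base matches TTGCCAA and TGCCAAA found none in the longest annotated 3′ UTR of the 9 genes with at least 10 counts, which measured from 466 to 1233 bases. Among all 12503 genes with such a UTR, 19.5% held at least 1 of these matches.

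Beyond the 10 genes, the pathway around them was described by lists of genes with known roles. AP-1 relatives are the bZIP factors that pair with or resemble Fos and Jun. None of 13 tested genes passed a 2-fold change, against 19.4% of all genes tested. Their median log2 fold change was 0.43, or -0.17 with total counts. Above 0 were 9 of these 13 genes, and 5 of 13 with total counts, against 50% and 18.3% of all genes tested. With total counts 3 fell, against 26.6% of all genes tested: Fosl2 (-1.29) and, named after their values were seen, Mafk (-1.35) and Atf5 (-1.33). Of the other immediate-early transcription factors, 3 of 21 fell and 2 rose, against 9.94% and 9.46% of all genes tested. Their median was -0.15. Bhlhe40, a repressor with ties to the clock, had 43 counts (KO) and 328 (WT) and fell by 2.33 (-2.83 to -1.88). Id1, an inhibitor of differentiation factors, had 45 and 142 counts and fell by 1.06 (-1.58 to -0.57). The orphan receptor gene Nr4a1 had 8 and 35 counts and fell by 1.49 (-2.86 to -0.40). Arid5a, an RNA-binding factor of inflammation, had 35 and 24 counts and rose by 1.12 (0.35 to 1.95), or 0.53 with total counts. The other that rose, Nr4a2, a relative of Nr4a1, had 13 and 2 counts and was named after its values were seen.

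Other immediate-early effectors, which are no transcription factors, went both ways. Of 37 tested genes 8 rose and 5 fell, against 9.46% and 9.94% of all genes tested. The median was 0.11, or -0.49 with total counts. The antiproliferative gene Btg2 had 62 KO counts and 210 WT counts and fell by 1.16 (-1.60 to -0.75). Rhob, a small GTPase, fell by 1.08, the stress gene Gadd45b by 1.08 and Rgs2, which restrains G protein signaling, by 1.50. The fifth, Ier5l, had 4 and 21 counts and was named after its values were seen. Zfp36, whose product destabilises cytokine mRNAs, stood at -0.47 (-0.65 to -0.30) and Ier5 at -0.72 (-1.24 to -0.24). Socs2, a brake on growth hormone signaling, had 315 and 137 counts and rose by 1.79 (1.50 to 2.09), and Thbs1, a matrix protein that activates TGF-beta, had 42 and 18 counts and rose by 1.78. Plk3 (1.03) and Rnd3 (1.05) passed 2-fold with TMM but stood at 0.43 and 0.45 with total counts.

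**Figure D5:**
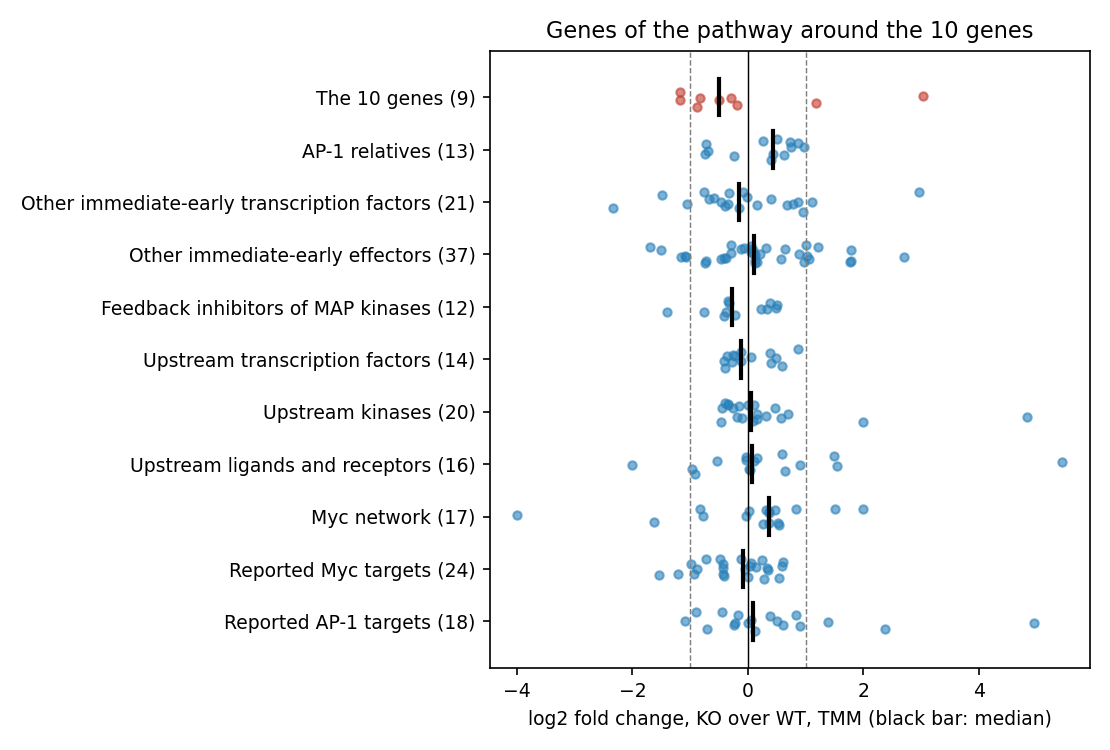
Log2 fold change, KO over WT, of the tested members of the set of 10 genes (red) and of the 10 lists around them (blue), with the number tested in brackets, the median as a black bar and dashed lines at a 2-fold change. The median of the 9 tested genes of the set is -0.50, and those of the other lists run from -0.28 to 0.43.

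Upstream of the 10 genes, the lists were read against the 9.46% of all genes that rose and the 9.94% that fell. None of the 14 tested transcription factors that act on immediate-early promoters passed a 2-fold change, and their median was -0.11. Srf stood at -0.11 (-0.55 to 0.32). Among 20 kinases of the ERK, JNK, p38 and JAK pathways, 2 rose and none fell, with a median of 0.05. Map2k7, an activator of the JNK kinases that phosphorylate Jun, had 295 counts in KO and 111 in WT liver and rose by 2.00 (1.68 to 2.33), and it shares 37.4% of its 51-base words with another gene. The other, Rps6ka5, had 11 and 0 counts and was likewise named after its values were seen. Of 16 tested ligands and receptors 3 rose and 1 fell, and Lifr, a receptor of the IL-6 family, had 3277 and 1694 counts and rose by 1.54 (1.46 to 1.63), or by 0.94 with total counts. The gene that fell was Hgf, the hepatocyte growth factor, with 5 and 32 counts, named after its values were seen. The others that rose, Tnf (17 and 0) and Erbb2 (23 and 12), were named in the same way. For Hgf, the authors' quantitative PCR of KO and WT livers at day 3 after PH found no significant difference. Of 12 tested feedback inhibitors of MAP kinases 1 fell, Dusp5 with 6 and 25 counts (named after its values were seen), and none rose. The phosphatase gene Dusp1, itself an immediate-early gene, had 203 and 408 counts and stood at -0.41 (-0.66 to -0.17).

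Downstream, the lists of reported targets had medians near 0 with TMM scaling. Of 24 reported Myc targets 2 fell and none rose, against 9.94% and 9.46% of all genes tested, with a median of -0.09. With total counts 11 of the 24 fell, against 26.6% of all genes tested, and the median was -0.69, against -0.60 for all genes tested. Nop56, which serves ribosome assembly, had 128 counts (KO) and 445 (WT) and fell by 1.20 (-1.50 to -0.92). Cdkn1a, the gene of the cell cycle inhibitor p21, which Myc is known to repress, had 228 and 1002 counts and fell by 1.54 (-1.76 to -1.33). Of 18 tested reported AP-1 targets 3 rose and 1 fell, against 9.46% and 9.94% of all genes tested, and the median was 0.09. The gene that fell was Mmp2, a gelatinase of the matrix, with 12 and 39 counts. Those that rose, Plaur (18 and 10), Timp1 (12 and 3) and Mmp13 (12 and 0), had few counts and were named after their values were seen. Ccnd1, the gene of cyclin D1, had 529 and 1487 counts and stood at -0.90 (-1.04 to -0.75), or -1.50 with total counts. In the Myc network, the dimer partner gene Max stood at 0.26 (-0.12 to 0.64), and at -0.34 with total counts. Mxd4 and Mga, whose products compete with Myc for Max, rose by 1.50 and 1.99, or by 0.90 and 1.39 with total counts. Mlx, the partner of the carbohydrate sensor ChREBP, fell by 1.63 and shares 17.5% of its 51-base words with another gene. Mycl, a relative of Myc, had 2 KO counts and 57 WT counts (interval of the log2 fold change -7.32 to -2.32). Cdkn1a, Nop56, Ccnd1 and Socs2 share 10.4%, 19.7%, 27.2% and 7.16% of their 51-base words with other genes, which leaves their counts uncertain to that extent.

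Immediate-early genes are expressed in every cell type of the liver. All 8 markers of Kupffer cells and macrophages, 7 of 8 of stellate cells and 5 of 6 of endothelial cells were below 0 in the KO library. Of all genes tested 50% were below 0 with TMM, and 81.7% with total counts. The summed levels of these markers were 135 against 179, 89.7 against 133 and 64.9 against 80.1 TMM-scaled CPM (KO against WT). Their medians with total counts were -0.90, -1.24 and -1.04 on the log2 scale, beside -0.60 for all genes tested. None of these 22 markers was at 0 in either library. The sum over neutrophil markers was 44.1 against 37.7 and that over cholangiocyte markers 164 against 125, both higher in the KO library with TMM but with medians of -0.22 and -0.20 on the log2 scale with total counts. Spp1, with 1638 KO and 1875 WT counts, made up most of the cholangiocyte sum. Of the 5 cholangiocyte markers 4 were above 0 with TMM, and Sox9 was below at -0.31. Of the neutrophil markers Ly6g was at 0 in both libraries and Mpo in the KO library. Lymphocyte markers had 22 and 34 counts in all, with Cd3e and Cd3g at 0 in the KO library. The part of these cells in the lower counts of Jun, Jund, Egr1, Atf3 and Myc was not tested, and in bulk liver fewer cells of a type and less RNA per cell cannot be told apart.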

How the data were processed

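Libraries of poly(A) RNA from liver were run on an Illumina HiSeq. The authors deposited a single table with raw read counts per gene, and the FPKM made from them. The submitters' notes name HISAT2 2.0.4, StringTie, edgeR and, for these mouse samples, the build hg38. The counting program is not given in the sources used here. The coordinates in the table are of mouse, and of 34267 identifiers found in GENCODE M21 (GRCm38) 80.8% have the same ones. The deposited FPKM divide some genes by the summed length of their transcripts, 7520 bases for Egr1 and 9933 for Myc against 4484 and 2338 for the longest, so levels of different genes were recomputed per kilobase of the longest coding transcript (for single-exon genes, of the gene).

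Counts were scaled by TMM in edgeR 4.0.16 (R 4.3.3), with a prior count of 0.5. With 1 library per genotype edgeR's quasi-likelihood test could not be fitted. Exact 95% intervals were computed from the counts with scipy 1.17.1, those of ratios between 2 genes as conditional odds ratios. At these depths precision is low for genes with few counts, such as Fos. The genes and lists were chosen with earlier results of these data known. Named are the 10 genes, up to 4 genes a list in each direction past 2-fold with at least 50 counts and an interval clear of 0, and 12 relatives fixed by name (Fosl1, Fosl2, Egr2, Egr3, Ier5, Srf, Max, Dusp1, Zfp36, Btg2, Nr4a1 and Ccnd1). Egr4, Tnfaip3, Il6 and Il1b, outside this rule, were named after their values were seen. Alternatives were total counts, with and without mitochondrial genes, DESeq2 1.42.0 size factors, the upper quartile, FPKM (log2 after adding 0.1), minimums of 1 or 50 counts and a prior count of 5.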

Additional observations from a re-analysis of the deposited data

How the results depend on the processing

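No paired analysis was possible because there was a single library of each genotype, which also leaves no replicate to omit. Under upper quartile scaling, DESeq2's size factors and total counts without mitochondrial genes, 2 of the 9 genes stayed past a 2-fold rise and 2 past a 2-fold fall. With total counts 1 rose, 5 fell and the median was -1.10, while 624 of all genes rose and 3605 fell, against 1283 and 1348 with TMM. The authors' FPKM, after adding 0.1, gave 1, 5 and -1.10, and 405 and 2934. Total counts moved all genes down alike, to a median of -0.60. The FPKM setting, with a median of -0.54 over all genes tested, did not move genes alike. It took Fos from 3.03 to 1.80 and Myc from -0.88 to -1.22. A prior count of 5 left 1 gene higher (Fos). A minimum of 50 counts removed Fos and Ier3 from the test, so that 0 were higher, the median was -0.82, and 656 of all genes rose and 730 fell, since fewer were tested. A minimum of 1 count brought Fosb in and gave 2269 and 2763. Fos and Ier3, with 35 and 23 counts in all, and Fosb, with 7, are at the limit of this depth.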

Other observations

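A few genes of the lists had reads in KO liver alone. They were chosen after their values had been seen, and the counting intervals given here make no allowance for that choice. Tnf, Mmp13 and Rps6ka5, with 0 WT counts, reached the minimum for the test through their KO counts alone. The share of all genes with reads in KO liver alone was not computed. Whether such counts are unusual was therefore not tested. Tnf, the cytokine that primes hepatocytes after PH, had 17 KO counts and 0 WT counts, and the exact counting interval of its fold began at 6.22, or at 4.10 with total counts. Mmp13, a collagenase and reported AP-1 target, had 12 and 0 counts, with a lower end of 4.19, or 2.76 with total counts. The kinase gene Rps6ka5 had 11 and 0 counts, with a lower end of 3.78, or 2.49 with total counts. Tnfaip3, which restrains NF-kB, rose by 2.70 on the log2 scale, from 6 to 28 counts, and Nr4a2, a relative of Nr4a1, had 13 and 2 counts. Il6 had 0 counts in both libraries, and Il1b had 34 in each.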
